A study of Mus musculus with 12 samples.

Results

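Gfy, Rtp1, Cdhr1 and Lhx2 are 4 genes known from the olfactory system that were followed through ribosome-bound RNA of the newborn mouse inner ear. They were taken by symbol, as 4 of the 29641 genes listed in the cochlea or the vestibule, and all 4 were listed in both organs. They had been chosen because they stood higher in mutants of these same libraries, so their levels and fold changes are given as a description, without a test. The labelled rise held by organ and not for all 4 genes in both: Gfy was high in mutants of both organs, Lhx2 and Cdhr1 in mutant cochlea, and Rtp1 foremost in mutant vestibule.

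Mutants were Gfi1Cre/Cre;RiboTagHA/HA mice, with Cre on both copies of Gfi1, and heterozygotes were Gfi1Cre/+;RiboTagHA/HA mice, with 1 unmodified copy. All groups thus carried Gfi1Cre and the RiboTag allele on both chromosomes, and Cre driven from the Gfi1 locus tags a ribosomal protein with HA in the cells that express it. Ribosomes were pulled down with an HA antibody at postnatal day 0 to 1, with 3 biological replicates of mutant cochlea, heterozygous cochlea, mutant vestibule and heterozygous vestibule (12 libraries). Cre dose and loss of unmodified Gfi1 cannot be told apart in this design, and cochlear and vestibular libraries were made with different kits, so levels were not compared between organs. Values are in CPM, reads of a gene scaled to the total of its library. Cochlear libraries held 7531518 to 9363796 reads, so 1 read was worth 0.107 to 0.133 CPM there. Vestibular libraries were deeper, at 18951026 to 29370267 reads and 0.0340 to 0.0528 CPM per read. Gfi1 itself, for a zinc finger repressor needed by hair cells, had 75.1, 64.3 and 69.1 CPM in mutant cochlea and 165, 106 and 126 CPM in heterozygous cochlea. In the vestibule Gfi1 had 236, 198 and 208 CPM in mutants and 534, 450 and 483 CPM in heterozygotes, so reads from the locus remained in every mutant library.

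Olfactory sensory neurons detect odorants with receptors that sit on cilia and signal through a G protein, adenylyl cyclase and a cyclic nucleotide-gated channel. Many odorant receptors reach the cell surface only with the help of receptor transporter proteins, of which RTP1 is one. GFY, also called Goofy, is a Golgi membrane protein of these neurons. LHX2 is a LIM homeodomain transcription factor needed for their maturation and for odorant receptor gene expression, and it also acts in forebrain, eye and hair follicle. CDHR1 is a cadherin of photoreceptor outer segments that is also known from mitral and tufted cells of the olfactory bulb, the targets of the sensory neurons, and is therefore not a defining gene of the sensory neurons themselves.

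Promoter sequence was available for 3 of the 4 genes, from RefSeq on GRCm38.p6, as windows from 250 bases before to 50 bases after a start. The windows of Gfy, Cdhr1 and Lhx2 are shown because these 3 genes were high in the same mutant cochlear libraries. Capitals mark letters of an E-box (CANNTG, the class bound by basic helix-loop-helix factors), of the EBF motif (TCCC and GGGA with any 2 bases between them) and of the extended GFI1 core (AAATC), searched on both strands. The Gfy window lies at chr7:45179548-45179847 (minus strand), the Cdhr1 window at chr14:37098298-37098597 (minus strand) and the first Lhx2 window at chr2:38339031-38339330 (plus strand), each written 5′ to 3′ along its gene.
Gfy: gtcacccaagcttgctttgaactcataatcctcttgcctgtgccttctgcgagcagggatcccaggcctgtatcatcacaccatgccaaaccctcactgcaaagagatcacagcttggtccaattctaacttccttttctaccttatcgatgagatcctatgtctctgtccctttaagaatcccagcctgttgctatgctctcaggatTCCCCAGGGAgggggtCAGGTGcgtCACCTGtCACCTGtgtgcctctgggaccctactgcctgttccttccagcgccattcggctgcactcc
Cdhr1: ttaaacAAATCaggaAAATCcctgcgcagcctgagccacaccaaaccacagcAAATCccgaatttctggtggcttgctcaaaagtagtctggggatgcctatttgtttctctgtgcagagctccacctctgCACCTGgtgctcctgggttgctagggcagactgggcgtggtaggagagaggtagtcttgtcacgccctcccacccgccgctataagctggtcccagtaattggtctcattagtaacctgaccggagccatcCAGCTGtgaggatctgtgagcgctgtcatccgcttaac
Lhx2: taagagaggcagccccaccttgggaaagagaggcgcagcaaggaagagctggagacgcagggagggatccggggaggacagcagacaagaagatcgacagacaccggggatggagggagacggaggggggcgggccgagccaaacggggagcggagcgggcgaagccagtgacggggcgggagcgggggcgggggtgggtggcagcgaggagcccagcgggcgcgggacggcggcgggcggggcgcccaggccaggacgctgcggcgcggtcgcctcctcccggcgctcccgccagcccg
The Gfy window held the EBF motif once, as TCCCCAGGGA, and 3 E-boxes of the form CACCTG or its reverse complement CAGGTG, all within the last 42 bases before the start. The EBF motif was in 0.904% of 32851 RefSeq promoter windows of the same length, and CACCTG in 20.2%. In the Cdhr1 window AAATC, which 35.9% of all windows held, occurred 3 times, and E-boxes, which 72.3% held, occurred as CACCTG and CAGCTG. The shorter GFI1 core AATC, which 73.1% of all windows held and which is not marked, occurred 3 times in the Gfy window. In the Cdhr1 window it occurred 3 times, each within AAATC. None of these motifs was in the first Lhx2 window, and a second Lhx2 window held a single E-box, CATCTG. The LIM homeodomain motif TAATTA, in 5.29% of windows, was in none of the 4 member windows. The first Lhx2 window was 74.7% G and C, against 53.3% for Gfy, 54.0% for Cdhr1 and a median of 52.7% over all windows. A match says only that these letters are in the window.

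Gfy (ENSMUSG00000095276, GENCODE M21, minus strand) spans chr7:45176349-45179569 of GRCm38, with 1849 exonic bases. In the cochlea it had 59.6, 139.9 and 68.3 CPM in mutant replicates 1, 2 and 3, against 1.14, 0.133 and 0 CPM in heterozygous replicates 1, 2 and 3. The heterozygous values rest on 9, 1 and 0 reads, beside 477, 1084 and 590 reads in mutants, so Gfy went nearly unseen in heterozygous cochlea and all mutant libraries lay above it. Gfy averaged 89.3 ± 44.0 CPM in mutant cochlea and 0.425 ± 0.625 CPM in heterozygous cochlea (SD, n = 3 each). The difference was 5.97 on the log2(CPM + 1) scale (SE 0.34). Over pooled reads mutants were 218-fold higher, with a 95% counting interval from 119 to 456 that covers counting error only. In the vestibule Gfy had 124, 96.9 and 90.7 CPM in mutants, against 1.61, 1.93 and 2.11 CPM in heterozygotes. The vestibular groups were far apart and tighter than the cochlear ones, with 104 ± 17.8 CPM in mutants and 1.88 ± 0.255 CPM in heterozygotes (SD, n = 3 each). The vestibular difference was 5.18 (SE 0.19) on the log2(CPM + 1) scale and 53.8-fold over pooled reads (interval 45.6 to 63.8).

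Rtp1 (ENSMUSG00000033383, plus strand) spans chr16:23429133-23433960, with 3120 exonic bases. In the vestibule it had 187, 178 and 189 CPM in mutants, against 28.0, 34.1 and 31.9 CPM in heterozygotes. Rtp1 was thus the only one of the 4 above 10 CPM in any heterozygous library, and its 3 mutant vestibular libraries lay close together. It averaged 185 ± 5.72 CPM in mutant vestibule and 31.3 ± 3.07 CPM in heterozygous vestibule (SD, n = 3 each), a difference of 2.53 (SE 0.12) on the log2(CPM + 1) scale. Over pooled reads mutants were 5.88-fold higher (95% counting interval 5.62 to 6.14). In the cochlea Rtp1 stayed low, with 0.875, 2.58 and 1.16 CPM in mutants and 0, 0 and 0.320 CPM in heterozygotes. These values are 7, 20 and 10 reads in mutants and 0, 0 and 3 reads in heterozygotes, under the level required for testing. The mutant libraries lay above the heterozygous ones, at a pooled ratio of 12.5 with a counting interval from 3.97 to 63.5.

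Lhx2 (ENSMUSG00000000247, plus strand) spans chr2:38339281-38369733, with 4393 exonic bases. In the cochlea it had 63.2, 147 and 55.8 CPM in mutants, against 0.762, 0 and 0.107 CPM in heterozygotes, which are 6, 0 and 1 reads. Among the 17985 genes tested in the cochlea its log2(CPM + 1) difference, 6.03 (SE 0.34), ranked first, with Gfy at rank 4 and Cdhr1 at rank 11. These ranks describe the contrast on which the genes were chosen, and they depend on the pseudocount. With a pseudocount of 4 the difference was 4.306 for Lhx2 and 4.309 for Gfy. Lhx2 averaged 88.6 ± 50.4 CPM in mutant cochlea and 0.290 ± 0.413 CPM in heterozygous cochlea (SD, n = 3 each). Over pooled reads mutants were 308-fold higher, with a counting interval from 149 to 767. In the vestibule Lhx2 had 5, 6 and 0 reads in mutants and 1, 4 and 1 reads in heterozygotes, or at most 0.264 CPM in any library. The vestibular groups overlapped and were too low to test. Both antisense genes annotated within the Lhx2 span, Gm27197 and Gm13584, shared 0 exonic bases with it and had at most 4 reads in any cochlear library.

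Cdhr1 (ENSMUSG00000021803, minus strand) spans chr14:37077857-37098347, with 4332 exonic bases. In the cochlea it had 22.2, 84.1 and 33.0 CPM in mutants, against 2.54, 4.91 and 3.52 CPM in heterozygotes. The groups did not overlap, but the mutant libraries were spread widely around their mean of 46.5 ± 33.1 CPM, against 3.66 ± 1.19 CPM in heterozygotes (SD, n = 3 each). The difference was 3.16 (SE 0.38) on the log2(CPM + 1) scale and 12.6-fold over pooled reads (95% counting interval 10.1 to 15.8). In the vestibule Cdhr1 had 3.06, 8.62 and 2.95 CPM in mutants and 2.01, 6.88 and 4.19 CPM in heterozygotes. These groups overlapped, replicate 2 was the highest of each genotype, and the difference was 0.11 (SE 0.45). Over pooled vestibular reads the ratio was 1.13, with a counting interval from 0.971 to 1.32.

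**Figure D1:**
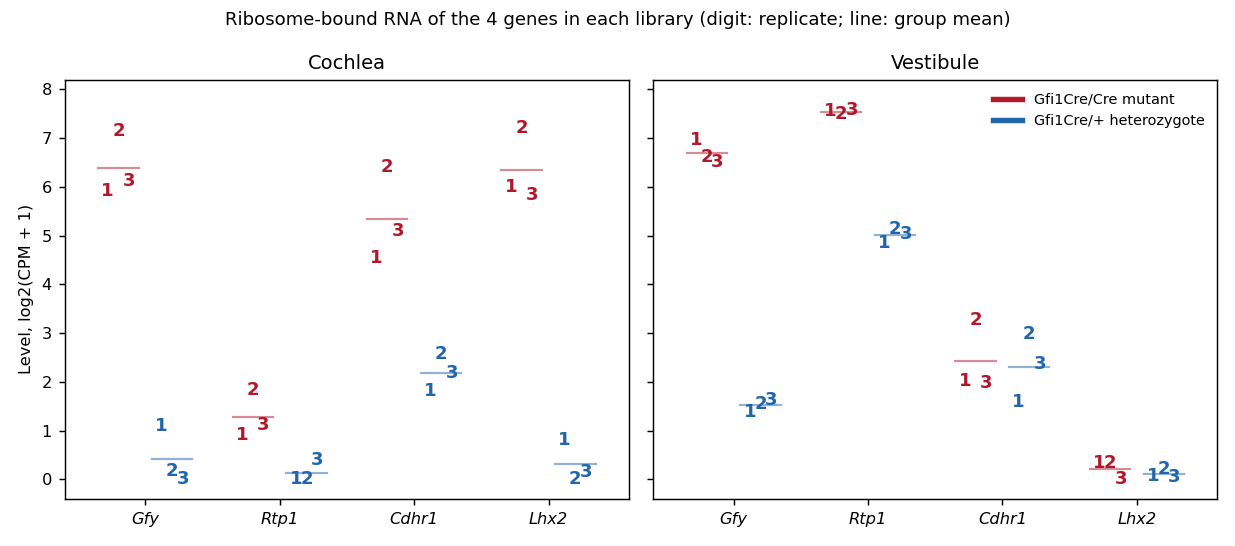
Level of Gfy, Rtp1, Cdhr1 and Lhx2 in each of the 12 libraries, as log2(CPM + 1) on the vertical axis, with mutants (red) left of heterozygotes (blue) for each gene, digits for the replicate and lines for the group means. Red and blue are far apart for Gfy in both organs, for Lhx2 and Cdhr1 in the cochlea and for Rtp1 in the vestibule.

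Separation of the 3 mutant libraries above the 3 heterozygous ones held for all 4 genes in the cochlea and for Gfy and Rtp1 in the vestibule. Among all listed genes 7.54% were separated in this direction in the cochlea and 7.45% in the vestibule, and since the genes were chosen on these contrasts nothing is read from their count. Levels were set side by side between genes after division by exon length. The length is that of all annotated exons, and neither the isoforms in use nor the annotation used for counting is known, so the order is approximate. Per kilobase, mutant cochlea averaged 48.3 CPM for Gfy, 20.2 CPM for Lhx2, 10.7 CPM for Cdhr1 and 0.493 CPM for Rtp1. The same 3 libraries kept this order of Gfy, Lhx2 and Cdhr1, with a ratio of Gfy to Lhx2 per kilobase of 2.24, 2.27 and 2.91. In mutant vestibule Rtp1 at 59.2 CPM per kilobase and Gfy at 56.2 CPM per kilobase could not be ordered, because their ratio was 0.890, 1.09 and 1.24 in replicates 1, 2 and 3. Cdhr1 followed at 1.13 CPM per kilobase and Lhx2 at 0.0394. In heterozygotes Cdhr1 was the highest of the 4 per kilobase in the cochlea, at 0.845 CPM, and Rtp1 in the vestibule, at 10.04 CPM. No stretch of 50 bases in the GENCODE transcripts of these genes occurred in a transcript of another gene.

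**Figure D2:**
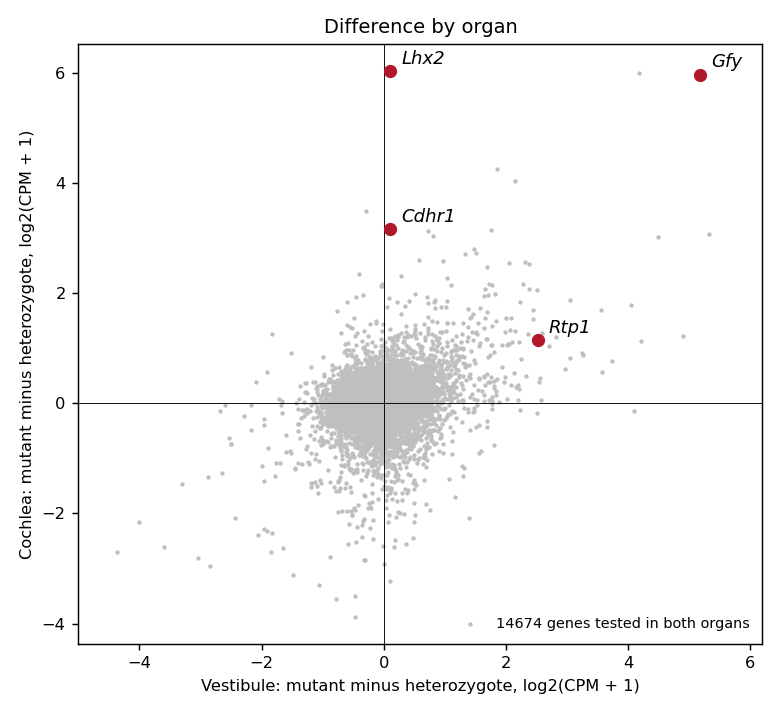
Difference between mutants and heterozygotes on the log2(CPM + 1) scale in the cochlea (vertical) and the vestibule (horizontal), with the 14674 genes tested in both organs as grey points and the 4 genes in red. Gfy lies at 5.18 in the vestibule and 5.97 in the cochlea, Rtp1 at 2.53 in the vestibule and 1.15 in the cochlea, and Cdhr1 and Lhx2 on the vertical axis at 0.11 in the vestibule. The differences of Rtp1 in the cochlea and of Lhx2 in the vestibule rest on low values that were not tested.

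In the cochlea the 4 genes were also highest in the same library. Mutant replicate 2 held 1.57 times the mean of the 3 mutant cochlear libraries for Gfy, 1.68 times for Rtp1, 1.81 times for Cdhr1 and 1.66 times for Lhx2. Neurod1, Gap43, Stmn4, Tubb3 and Stmn2, genes of developing neurons described below, were raised there too, at 1.52 to 1.69 times the mean. They were picked from genes called higher in mutant cochlea, and Sox11, Ebf2 and Nhlh1, called there as well, were left out. Summed markers of hair cells, inner ear ganglion neurons, glia, supporting cells, macrophages and mesenchyme were at 0.885 to 1.02 times their mean in that library. Tubb3 is also 1 of the ganglion markers in these sums. A sum can hide how its single genes vary, so no pattern is read from single genes set beside sums. Mitochondrially encoded transcripts of mutant replicate 2 summed to 69794 CPM, against 58562 and 27152 CPM in mutant replicates 1 and 3. Heterozygous cochlear replicates 1, 2 and 3 held 78544, 77073 and 33207 CPM of these transcripts. In the vestibule they summed to 2368, 5156 and 1282 CPM in mutants and 7212, 8626 and 2733 CPM in heterozygotes. The mutant library was thus the lower of every same-numbered pair in both organs, and the part of any of these values in the members' levels and their spread was not tested. Without this library the cochlear differences on the log2(CPM + 1) scale were 5.59 for Gfy, 0.87 for Rtp1, 2.62 for Cdhr1 and 5.60 for Lhx2. In mutant vestibule the order was another, with replicate 1 highest for Gfy, replicate 3 for Rtp1 and replicate 2 for Cdhr1.

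**Figure D3:**
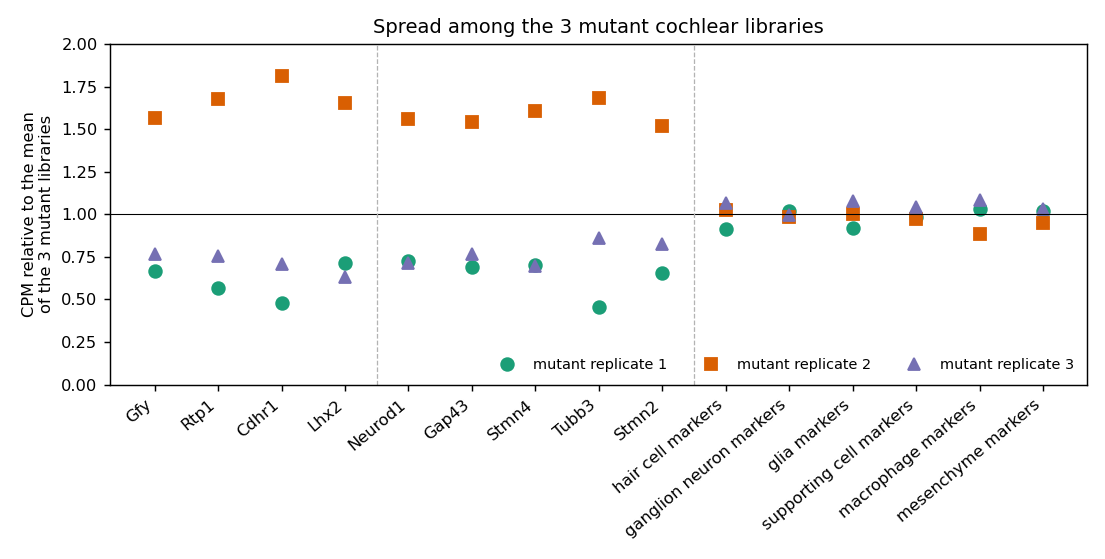
CPM in each of the 3 mutant cochlear libraries divided by their mean, for the 4 genes (left), 5 genes of developing neurons (middle) and summed markers of 6 cell types (right). Replicate 2 lies at 1.57 to 1.81 for the 4 genes and at 0.885 to 1.02 for the marker sums. Tubb3, in the middle, is also part of the ganglion neuron sum. The middle genes were picked from those called higher in mutant cochlea, and a sum can hide how its single genes vary.

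Likeness across libraries was measured as Pearson's r of log2(CPM + 1), centred within each organ, over the 12 libraries and 13416 genes, a measure that also carries depth and the genotype difference all libraries share. Cdhr1 and Lhx2 were most alike among the 4, at r = 0.91, followed by Gfy and Rtp1 at 0.89, Gfy and Lhx2 at 0.77 and Gfy and Cdhr1 at 0.70. Rtp1 reached 0.45 with Cdhr1 and 0.44 with Lhx2. The genes most like Gfy were Adarb2 (r = 0.996), St18 (0.989), Dnajc6, Afap1 and Gng3. Adarb2, for a brain-enriched relative of the RNA-editing deaminases, averaged 57.7 ± 11.3 CPM in mutant cochlea and 9.23 ± 1.93 CPM in heterozygous cochlea (SD, n = 3 each). Its vestibular means were 7.86 ± 0.508 CPM in mutants and 0.711 ± 0.302 CPM in heterozygotes. Elavl4 (r = 0.991), for a neuronal RNA-binding protein, led the genes like Rtp1, followed by Nmnat2, P2rx3, Tenm3 and Mab21l1. Elavl4 averaged 33.1 ± 3.16 CPM in mutant vestibule and 3.85 ± 0.637 CPM in heterozygous vestibule. The genes most like Cdhr1 were Tmem2 (0.956), Ncam1, Klhl13, Ntm and Clcn5, and those most like Lhx2 were Basp1 (0.964), Mapk4, Dner, Cadps and Zwint. Basp1, a growth cone membrane protein, averaged 86.5 ± 10.6 CPM in mutant cochlea and 39.3 ± 4.11 CPM in heterozygous cochlea, but 58.3 ± 3.07 CPM in mutant vestibule and 57.3 ± 4.05 CPM in heterozygous vestibule. By Spearman's correlation 1, 3, 3 and 1 of the 5 genes remained among the 5 most like Gfy, Rtp1, Cdhr1 and Lhx2.

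No odorant signalling gene was called higher in mutants of either organ, other than Gnb1 and Ric8b in the vestibule with replicate number as a block. Of 13 genes of olfactory transduction, 8 were tested in the cochlea and 0 were called at an adjusted p under 0.05 by limma (Benjamini-Hochberg), with 3 at an unadjusted p under 0.05 and 0 called by edgeR. Of 6 tested in the vestibule 0 were higher and 1 was lower by limma, with 2 at an unadjusted p under 0.05 and 0 called by edgeR. Among all tested genes 1.9% were called higher and 2.52% lower in mutant cochlea, and 2.41% higher and 1.09% lower in mutant vestibule. The median difference of the list was 0.17 in the cochlea and 0.03 in the vestibule on the log2(CPM + 1) scale, against 0.05 and -0.06 over all tested genes. Summed, the 13 genes ran from 533.9 to 558.4 CPM in mutant cochlea and, without overlap, from 466.8 to 480.9 CPM in heterozygous cochlea. In the vestibule the sums overlapped, at 494.3 to 569.3 CPM in mutants and 414.5 to 495.6 CPM in heterozygotes. Omp, the marker protein of mature olfactory sensory neurons, had 2.12, 3.10 and 4.17 CPM in mutant cochlea and 2.29, 0.929 and 1.39 CPM in heterozygous cochlea, which overlapped (limma adjusted p = 0.315). In the vestibule Omp had 0.422, 0.0849 and 0.287 CPM in mutants and 0.625, 0.545 and 1.02 CPM in heterozygotes, too low to test. Gng13, for a G protein gamma subunit of olfactory neurons, had 0 reads in all 3 mutant cochlear libraries and 1, 0 and 0 reads in heterozygous ones. The channel subunit genes Cnga2, Cnga4 and Cngb1 stayed at or under 2.55 CPM in all 12 libraries. Gnal and Adcy3, for the olfactory G protein alpha subunit and adenylyl cyclase, differed between genotypes by -0.24 and 0.02 in the cochlea and by -0.13 and -0.16 in the vestibule (limma adjusted p = 0.719, 0.994, 0.889 and 0.799). Ano2, for the calcium-activated chloride channel, fell in the vestibule to 0.264, 0.934 and 0.655 CPM in mutants, against 2.59, 3.10 and 3.03 CPM in heterozygotes (limma adjusted p = 0.0344). The Ano2 call was lost without any 1 of the 6 vestibular libraries (limma adjusted p 0.0654 to 0.151), without both replicate 1 libraries (0.0529), with no filter on low values (0.0647) and with edgeR (edgeR adjusted p = 0.0567). Gnb1, Ric8b, Pde1c, Slc24a4 and Stoml3 were not called by this fit where they were tested.

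Odorant receptor genes were barely counted. In the cochlea 168 genes named Olfr were listed and 6 tested, and 0 were called by limma or by edgeR, nor was any at an unadjusted limma p under 0.05. Their summed level was 23.3 to 27.7 CPM in mutant cochlea and 20.3 to 25.2 CPM in heterozygous cochlea, over all 168 genes. In the vestibule 48 were listed and 1 tested, with 0 called by limma or edgeR and 0 at an unadjusted limma p under 0.05, and sums of 4.12 to 6.84 CPM in mutants and 5.28 to 6.54 CPM in heterozygotes. The highest value of any of these genes in any library was 3.37 CPM. This value was of a gene whose symbol marks a pseudogene, the 1 tested in the vestibule. That gene and another with such a symbol were among the 6 tested in the cochlea.

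Of the other RTP and REEP genes, whose proteins help receptors through the secretory pathway, none that was tested was called higher in mutants by limma or edgeR, though Rtp2 and Reep2 passed in the cochlea under the alternatives given here. Of 9 family genes besides Rtp1, 7 were tested in each organ. In the cochlea 2 were called lower, by limma and by edgeR, where limma called 2.52% of all tested genes lower. In the vestibule 0 were called by either, with 0 at an unadjusted limma p under 0.05. The list medians were -0.05 in the cochlea and -0.21 in the vestibule on the log2(CPM + 1) scale. Rtp2, the closest relative of Rtp1 in odorant receptor transport, had 0.625, 2.97 and 1.39 CPM in mutant cochlea and 0.127, 0 and 0 CPM in heterozygous cochlea, under the level for testing. These are 5, 23 and 12 reads in mutants and 1, 0 and 0 reads in heterozygotes, at a pooled ratio of 40.6 with a counting interval from 6.89 to 1644. With no filter on low values Rtp2 was called higher in mutant cochlea (limma adjusted p = 0.034) and not in mutant vestibule (0.641). In the vestibule Rtp2 had 0, 18 and 8 reads in mutants and 4, 0 and 0 reads in heterozygotes. Reep5 fell to 93.7, 104 and 96.6 CPM in mutant cochlea, against 190, 156 and 161 CPM in heterozygous cochlea (limma adjusted p = 0.00192). Reep6 fell to 7.12, 6.19 and 7.76 CPM in mutant cochlea, against 25.5, 15.9 and 10.6 CPM in heterozygous cochlea (limma adjusted p = 0.034). The Reep6 call was lost without mutant replicate 1 or 2 or heterozygous replicate 1 or 2 (limma adjusted p = 0.102, 0.141, 0.182 and 0.09997), and with no filter on low values (0.0718). Reep2 had 10.2, 19.9 and 12.4 CPM in mutant cochlea and 6.22, 6.64 and 7.48 CPM in heterozygous cochlea (limma adjusted p = 0.0593). With replicate number as a block, or without mutant replicate 1, Reep2 passed (limma adjusted p = 0.00616 and 0.0455), and over all alternatives its adjusted p ran from 0.00616 to 0.265. Rtp4, Reep1, Reep3 and Reep4 were not called in either organ, and Rtp3, listed in the vestibule only, had 4 reads in 1 mutant library.

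With replicate number as a block, which called 4.21% of all tested genes higher and 4.31% lower in the cochlea and 10.5% and 12.8% in the vestibule, 3 transduction genes and 3 transport genes were called in the vestibule. Gnb1, Ric8b and Reep2 were then higher in mutants (limma adjusted p = 0.0143, 0.0389 and 0.0486), and Reep1 and Reep4 lower (0.038 and 0.0164). Under each other alternative the adjusted p of these 5 genes in the vestibule was 0.104 or more.

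**Figure D4:**
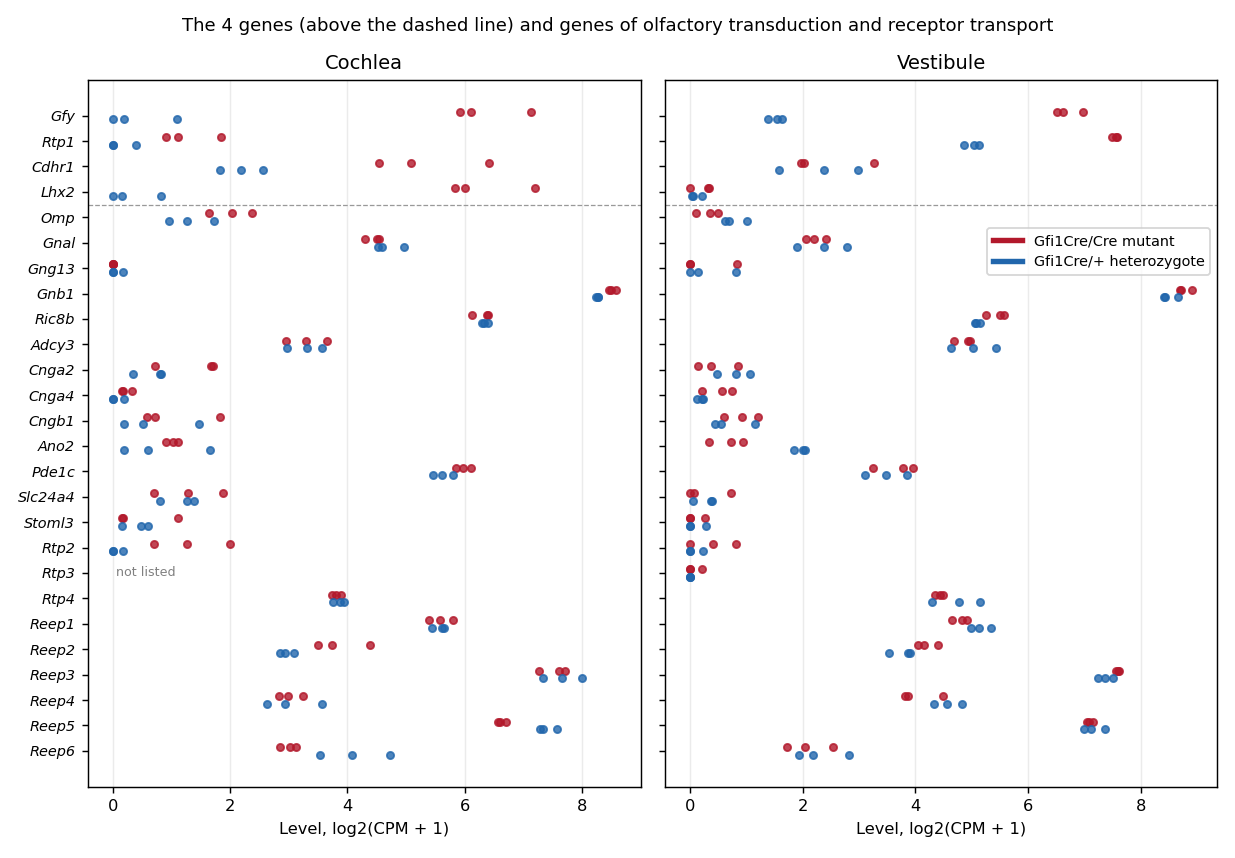
Level in each library as log2(CPM + 1), for the 4 genes above the dashed line and the 22 genes of olfactory transduction and receptor transport below it, with mutants (red) above heterozygotes (blue) in each row. Mutant and heterozygous points lie far apart for Gfy, Rtp1, Cdhr1 and Lhx2 in the organs named above, and close together or interleaved in most other rows.

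Some genes listed for transcription and chromatin in olfactory neurons were higher in mutants. The list was written with earlier results of these data known, so nothing is read from its counts. Of 16 genes 13 were tested in each organ, with 4 higher and 0 lower in mutant cochlea and 1 higher and 0 lower in mutant vestibule. Among all tested genes limma called 1.9% higher and 2.52% lower in mutant cochlea, and 2.41% and 1.09% in mutant vestibule. Neurod1, a basic helix-loop-helix factor of differentiating neurons, rose to 83.5, 180.0 and 82.6 CPM in mutant cochlea, against 1.78, 0.664 and 0.107 CPM in heterozygous cochlea (limma adjusted p = 6.65e-07). In the vestibule Neurod1 had at most 0.503 CPM in any library, so it was high in the same libraries as Lhx2. Sox11 rose by 0.86 (limma adjusted p = 0.00158), Ebf2 by 1.31 (0.0162) and Nhlh1 by 1.13 (0.025) in mutant cochlea, on the log2(CPM + 1) scale. Nhlh1 rose in mutant vestibule by 0.80 (limma adjusted p = 0.0125). The Ebf2 call was lost without mutant replicate 2 (limma adjusted p = 0.104, the highest over the alternatives, with 9.78e-07 the lowest), and the cochlear Nhlh1 call without mutant or heterozygous replicate 2 (0.106 and 0.132), leaving 2 calls in the list without mutant replicate 2. The cochlear Nhlh1 call was also lost with median-of-ratios scaling, TMM scaling and no filter on low values (limma adjusted p = 0.0626, 0.0637 and 0.0573). edgeR called Neurod1 and Sox11 of the list in the cochlea. The vestibular Nhlh1 call was lost without mutant replicate 2 or heterozygous replicate 2 or 3 (limma adjusted p = 0.0777, 0.0734 and 0.0541). The list median was 0.43 in the cochlea and 0.03 in the vestibule. With the replicate block 6 genes of the list were higher in the cochlea and 4 in the vestibule, against 4.21% and 10.5% of all tested genes.

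The list of surface and axon genes of olfactory neurons gave 4 rises and 2 falls among 17 tested in the cochlea. There 1.9% of all tested genes were called higher and 2.52% lower. This list too was written with earlier results of these data known, so nothing is read from its counts. The 4 that rose are genes of developing neurons, not of olfactory neurons alone, and Tubb3 is also a ganglion marker here. Of 16 tested in the vestibule limma called 0, with 6 at an unadjusted p under 0.05, and edgeR called 1 lower. Gap43, a growth cone protein, rose to 81.7, 182 and 90.7 CPM in mutant cochlea, against 9.91, 13.7 and 12.1 CPM in heterozygous cochlea (limma adjusted p = 7.15e-06). Tubb3, a neuronal tubulin, rose by 3.03 (limma adjusted p = 0.000168), and the microtubule regulators Stmn4 and Stmn2 rose by 2.76 and 2.13 (0.000184 and 0.000484). Efna5 and Robo2, named after their values were seen, fell by 1.02 and 0.50 on the log2(CPM + 1) scale (limma adjusted p = 0.0102 and 0.0453). Both calls were lost without heterozygous replicate 1 (limma adjusted p = 0.0709 for Efna5 and 0.199 for Robo2) or 2 (0.0576 and 0.106). The Robo2 call was also lost without mutant replicate 1, 2 or 3 (limma adjusted p = 0.0727, 0.0933 and 0.229), without both replicate 3 libraries (0.121), with median-of-ratios scaling (0.0503), with no filter (0.0863) and with edgeR (edgeR adjusted p = 0.0546). With the replicate block 6 genes of the list were higher and 3 lower in the cochlea, against 4.21% and 4.31% of all tested genes. Efna5 was then higher in mutant vestibule (limma adjusted p = 0.017, against 0.429 or more under the other alternatives). In the vestibule Gap43 and Tubb3 differed by 0.73 and 0.81 and passed with the replicate block alone (limma adjusted p = 0.018 and 0.0242, against 0.124 and 0.284 or more under the other alternatives), where 3 genes of the list were higher and 5 lower. Over all tested genes the block called 10.5% higher and 12.8% lower in the vestibule. The list medians were 0.10 in the cochlea and -0.17 in the vestibule. The difference of the genotype effect between organs, called for 3.14% of the 14674 genes tested in both, passed for Gap43 (limma adjusted p = 0.00185) and Stmn2 (0.0456). Both were named for their calls in the cochlea, which is part of this difference, so these p-values are a description.

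No relative of Lhx2 was called in the cochlea. Of 17 LIM homeodomain factors and partner genes besides Lhx2, 12 were tested there, with 0 called by limma or edgeR and 3 at an unadjusted limma p under 0.05. Of 13 tested in the vestibule 1 was higher, against 2.41% of all tested genes. Lhx4 rose there to 5.75, 10.7 and 5.61 CPM in mutants, against 1.21, 1.13 and 1.57 CPM in heterozygotes (limma adjusted p = 0.0121), a call lost without heterozygous replicate 2 (0.0651, the highest over the alternatives, with 0.000116 the lowest) and with no filter on low values (0.0558). Lhx9, the closest relative of Lhx2, had at most 4 reads in any of the 12 libraries. With the replicate block 4 genes were higher and 3 lower in the vestibule, against 10.5% and 12.8% of all tested genes.

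Among cadherin-related genes, the tip link cadherins of hair cells moved against Cdhr1. Cdh23 fell to 54.5, 58.5 and 70.3 CPM in mutant cochlea, against 148, 231 and 270.4 CPM in heterozygous cochlea (limma adjusted p = 8.56e-05). Pcdh15 fell by 0.72 on the log2(CPM + 1) scale (limma adjusted p = 0.00558), and these were the 2 calls among 3 genes tested in the cochlea, where 2.52% of all tested genes were called lower. Of 4 tested in the vestibule 0 were called by limma or edgeR and 1 was at an unadjusted limma p under 0.05. Pcdh15 differed there by 0.85 (limma adjusted p = 0.0773) and was higher with the replicate block (2.04e-06) and without both replicate 1 libraries (0.00533), its p over the alternatives reaching 0.244. Of 13 photoreceptor genes, the other setting in which Cdhr1 is known, 6 were tested in the cochlea and 1 fell. Prph2, a disc rim protein, had 1.12, 0.774 and 0.579 CPM in mutant cochlea and 8.26, 7.83 and 5.34 CPM in heterozygous cochlea (limma adjusted p = 0.000225). In the vestibule 0 of 4 tested were called by limma or edgeR, with 1 at an unadjusted limma p under 0.05. With the replicate block 2 photoreceptor genes were called in the cochlea and 1, Prph2, in the vestibule (limma adjusted p = 0.0208, against 0.193 or more under the other alternatives).

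Of the 8 nearest tested genes on the chromosome, 1 on each side of each of the 4, limma called 2. Over all tested genes it called 1.9% higher in mutant cochlea and 2.41% in mutant vestibule. Slc17a7, for the vesicular glutamate transporter VGLUT1, ends 206 bases from the end of Gfy on the opposite strand. It rose to 3.87, 6.19 and 5.10 CPM in mutant cochlea, against 1.65, 1.86 and 1.495 CPM in heterozygous cochlea (limma adjusted p = 0.0165). In the vestibule Slc17a7 had 13.1, 10.1 and 6.22 CPM in mutants and 1.56, 3.98 and 1.70 CPM in heterozygotes (limma adjusted p = 0.0412). The cochlear call was lost without mutant replicate 2 or 3 or heterozygous replicate 1 (limma adjusted p = 0.0933, 0.054 and 0.0609), without both replicate 3 libraries (0.0975) and with no filter on low values (0.0658). Without any 1 of the vestibular libraries other than heterozygous replicate 2 the vestibular call was lost as well (limma adjusted p 0.0513 to 0.152), as it was without both replicate 1 libraries (0.0957), with no filter (0.132) and with edgeR (edgeR adjusted p = 0.0567). Masp1, a complement protease gene 15456 bases from Rtp1, rose to 14.5, 16.1 and 16.0 CPM in mutant vestibule, against 1.79, 3.10 and 3.64 CPM in heterozygous vestibule (limma adjusted p = 0.00305). In the cochlea Masp1 differed by 0.55 (limma adjusted p = 0.237), and its difference between organs passed limma's interaction test (adjusted p = 0.00982). Ccdc155, St6gal1, Ccser2, Ghitm, Dennd1a and Nek6, the other nearest tested genes, were not called in either organ, though with the replicate block Ccdc155 and Ccser2 were higher in mutant vestibule (limma adjusted p = 0.00804 and 7.71e-05), Ccser2 also without both replicate 1 libraries (0.0196), and Ghitm was lower in mutant cochlea (0.0243).

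Marker genes of the cells a pull-down could hold gave the setting for these levels. In bulk RNA of this kind, fewer cells of a type and less RNA per cell cannot be told apart. Beside the counts below, limma called 1.9% of all tested genes higher and 2.52% lower in mutant cochlea, and 2.41% and 1.09% in mutant vestibule. With the replicate block these shares were 4.21% and 4.31% in the cochlea, and 10.5% and 12.8% in the vestibule. Hair cell markers, 14 genes of which none was at 0, summed to 3213 to 3758 CPM in mutant cochlea and 4796 to 5553 CPM in heterozygous cochlea, with 9 genes lower and 0 higher. In the vestibule they summed to 11019 to 11726 CPM in mutants and 10008 to 11042 CPM in heterozygotes, with 2 higher and 0 lower. Pairing by replicate number as a block gave 1 hair cell marker higher and 12 lower in mutant cochlea, and 6 higher and 2 lower in mutant vestibule. Inner ear ganglion neuron markers, 12 genes of which none was at 0, summed to 2200 to 2288 CPM in mutant cochlea, against 1527 to 1639 CPM in heterozygous cochlea, with 4 higher and 0 lower of 12 tested. In the vestibule they summed to 2572 to 2657 CPM in mutants and 1541 to 1783 CPM in heterozygotes, with 3 higher and 1 lower of 10 tested. Of the ganglion markers the block gave 6 higher and 0 lower in mutant cochlea, and 6 higher and 1 lower in mutant vestibule. The ganglion sums were higher in mutants of both organs, as Gfy and Rtp1 were, while Cdhr1 and Lhx2 overlapped between genotypes in the vestibule, and the part of these sums in the members' levels was not tested. Across the 3 mutant cochlear libraries, among which the 4 genes varied widely, the ganglion sum stayed between 0.983 and 1.02 times its mean. Tubb3, 1 of the ganglion markers, was at 0.457, 1.69 and 0.858 times its own mean in replicates 1, 2 and 3. The sum thus does not show how its single genes vary.

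Markers of other olfactory epithelium cells summed to 4.63 to 6.19 CPM in mutant cochlea and 2.52 to 4.16 CPM in heterozygous cochlea, and to 17.5 to 21.2 CPM in mutant vestibule and 25.8 to 30.7 CPM in heterozygous vestibule. Of the 14 genes 2 were tested in each organ, with 0 called by limma or edgeR and 1 at an unadjusted limma p under 0.05 in each. In mutant vestibule 1 of them was lower with the replicate block. Of 7 mitral cell and olfactory bulb genes 3 were tested in each organ, and Slc17a7 was the 1 called. Tbx21, for a transcription factor of mitral cells, had at most 0.312 CPM in any library. Glia markers summed to 241 to 283 CPM in mutant cochlea and 209 to 294 CPM in heterozygous cochlea, and to 240 to 268 CPM in mutant vestibule and 381 to 440 CPM in heterozygous vestibule. Mesenchyme markers summed to 1238 to 1343 CPM in mutant cochlea and 1136 to 1424 CPM in heterozygous cochlea, and to 1003 to 1363 CPM in mutant vestibule and 1864 to 2403 CPM in heterozygous vestibule. Supporting cell markers ran from 2089.7 to 2239.6 CPM in mutant cochlea and from 2088 to 2140.5 CPM in heterozygous cochlea, and from 1639 to 2062 CPM in mutant vestibule and 1456 to 2229 CPM in heterozygous vestibule. Macrophage markers ran from 2639.6 to 3239 CPM in mutant cochlea and from 2152 to 2709.7 CPM in heterozygous cochlea, and from 6789 to 8008 CPM in mutant vestibule and 7164 to 8894 CPM in heterozygous vestibule. Among these 4 lists limma called 0, 0, 1 and 0 genes lower and 0, 0, 0 and 2 higher in mutant cochlea, in the order glia, mesenchyme, supporting cell and macrophage. In mutant vestibule it called 1, 2, 0 and 0 genes lower and none higher. Vestibular calls with the replicate block were 6, 8, 2 and 3 genes lower and 0, 0, 2 and 0 higher, in the same order, while the cochlear calls numbered the same as without it. Where limma called 0 of a list, edgeR also called 0, and the genes at an unadjusted limma p under 0.05 numbered 0 for glia and mesenchyme in the cochlea and 3 and 2 for supporting cells and macrophages in the vestibule. Glia and mesenchyme sums were thus lower in mutant vestibule, where Gfy and Rtp1 were high, and their part was not tested.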

How the data were processed

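Values are CPM, deposited by the authors as 1 table per library with gene identifiers and symbols, per the file headers. The submitters' processing notes name TopHat and GRCm38; the sources used here do not name the program that counted reads, its use of strand or its annotation. All deposited CPM values (100%) were whole multiples of 1 read to within 1e-06, and whole reads were recovered from them. A gene was tested in an organ where 3 or more of its 6 libraries reached 1 CPM, which held for 17985 cochlear and 15595 vestibular genes. The genotypes were set against each other separately per organ with limma 3.58.1 (trended variance, R 4.3.3) after a log2(CPM + 1) transform, which understates changes of low genes. P-values were adjusted over all tested genes (Benjamini-Hochberg), and 0.05 was the threshold. An interaction term over 14674 genes gave the difference between organs. As alternatives, edgeR 4.0.16 (quasi-likelihood test) was run on recovered reads, and other pseudocounts, filters and scalings, a replicate block and fits leaving out libraries were tried. The limma fits per organ and for the difference between organs were first tried, at their main settings, on simulated reads without pairing. edgeR, the replicate block and the other scalings were not part of that trial.

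Same-numbered libraries deviated together, with correlations of at least 0.226 in the cochlea and 0.508 in the vestibule, so the numbers of the labels pair the samples. In the vestibule mutant replicate 3 with heterozygous replicate 2 and mutant replicate 2 with heterozygous replicate 3 also correlated, at 0.318 and 0.220. Reported fits have no block and so leave this pairing out, and a gene given as not called was not called without it. Blocked counts or values are printed where the block changes a call. Intervals on pooled reads cover counting error only, and p-values measure the spread between 3 replicates, which the series calls biological. In both vestibular replicate 1 libraries up to 0.729% of the total lay outside the listed genes, and the cochlear replicate 3 libraries held fewer mitochondrially encoded transcripts.

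The 4 genes and the 15 gene lists were chosen with earlier results of these data known. Named genes are the 4 members, all transduction and transport genes, up to 4 called genes per other list and organ by smallest p, the nearest tested gene on each side of a member, the 5 most alike genes per member, and Gfi1. Marker lists are given as sums and counts. Coordinates are from GENCODE M21 and promoters from RefSeq (GRCm38.p6). Figures were drawn with matplotlib 3.10.9.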

Additional observations from a re-analysis of the deposited data

Results flagged for a closer look

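The difference of the genotype effect between organs, cochlear minus vestibular on the log2(CPM + 1) scale, passed limma's interaction test at an adjusted p under 0.05 for 7 of the list genes and neighbours named beside the 4. Over all genes tested in both organs 3.14% passed. Gap43, Stmn2, Cdh23, Pcdh15 and Prph2 were named for their calls in the cochlea, which is part of this difference. Their p-values are therefore a description, and nothing is read from the count of 7. The difference between organs was 2.40 for Gap43 (limma adjusted p = 0.00185), whose rise was larger in the cochlea, and 2.17 for Stmn2 (0.0456). In the vestibule Stmn2 was not called, and its genotype difference ran from -0.39 to 0.33 with 1 library at a time left out. Between organs the difference was -1.99 for Cdh23 (limma adjusted p = 0.000627), -1.58 for Pcdh15 (0.00326), -2.64 for Prph2 (0.00028) and -0.71 for Reep5 (0.0488), each lower in mutant cochlea and not called in the vestibule. For Masp1, a neighbour of Rtp1, it was -1.58 (limma adjusted p = 0.00982), with the larger rise in the vestibule. Library kit and organ cannot be told apart in this comparison. For Cdhr1, Lhx2, Rtp1 and Gfy the difference between organs was not tested, since they were chosen on these contrasts.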

How the results depend on the processing

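The 4 genes kept the direction of each difference, Cdhr1 in the vestibule apart, under every alternative in which they were fitted, but the size of a log2 difference depended on the pseudocount where heterozygotes were near 0. edgeR was not run for Rtp1 in the cochlea or Lhx2 in the vestibule. Lhx2 in the vestibule had 11 reads in mutants and 6 in heterozygotes in overlapping groups, so nothing is read from its direction. With a pseudocount of 0.25 it was 7.35 for Gfy, 7.49 for Lhx2 and 2.32 for Rtp1 in the cochlea, and 5.60 for Gfy and 0.30 for Lhx2 in the vestibule. With a pseudocount of 4 it was 4.31 for Gfy, 4.31 for Lhx2 and 0.42 for Rtp1 in the cochlea, and 4.19 for Gfy and 2.42 for Rtp1 in the vestibule. edgeR gave 7.69 for Gfy and 8.18 for Lhx2 in the cochlea and 5.82 for Gfy in the vestibule, and without both vestibular replicate 1 libraries Gfy was at 4.97. Leaving out 1 library at a time gave 5.59 to 6.30 for Gfy, 0.87 to 1.34 for Rtp1, 2.62 to 3.56 for Cdhr1 and 5.60 to 6.28 for Lhx2 in the cochlea, and 5.04 to 5.27 for Gfy, 2.45 to 2.59 for Rtp1, -0.31 to 0.44 for Cdhr1 and 0.05 to 0.22 for Lhx2 in the vestibule.

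With the replicate block, in which same-numbered libraries are paired, genes called numbered 1532 in the cochlea, against 794 without it, 3634 in the vestibule, against 546, and 1955 for the difference between organs, against 461. Calls within the lists in the vestibule were then 3 (transduction), 3 (receptor transport), 4 (transcription), 8 (surface and axon), 7 (LIM), 1 (cadherins) and 1 (photoreceptor), and 2 for photoreceptor genes in the cochlea; the counts of the other lists on olfactory neurons and relatives of the 4 moved by at most 1.5 times. Among marker lists, vestibular calls with the block were 8 for hair cells (2 without it), 7 for ganglion neurons (4), 6 for glia (1), 8 for mesenchyme (2), 4 for supporting cells (0), 3 for macrophages (0) and 1 for other olfactory epithelium cells (0). Over the alternatives without the block, vestibular hair cell markers gave 2 to 4 higher, ganglion markers 1 to 3 higher, glia 0 to 1 lower and mesenchyme 1 to 4 lower. Without both vestibular replicate 1 libraries 863 genes were called there, and 0 transduction, 1 surface, 5 LIM and 1 cadherin genes. No filter gave 358 calls in the vestibule, with 0 transduction and 0 LIM genes, and a filter at 5 CPM gave 0 transduction genes. edgeR called 0 transduction and 1 surface genes in the vestibule and 2 transcription genes in the cochlea.

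Leaving out 1 library at a time gave 226 to 522 calls in the vestibule, where it fell to 254 and 253 without mutant replicate 2 or 3 and to 226 and 293 without heterozygous replicate 2 or 3, 546 to 801 in the cochlea and 302 to 453 between organs. Within lists it gave, in the cochlea, 1 to 2 calls for receptor transport, 2 to 4 for transcription and 4 to 6 for surface genes, and in the vestibule 0 for transduction, 0 to 1 for transcription, 0 to 1 for surface and 0 to 2 for LIM genes. By Spearman's correlation the genes most like each member kept 1 of 5 for Gfy, 3 for Rtp1, 3 for Cdhr1 and 1 for Lhx2. The causes of these shifts were not tested. Heterozygous Gfy and Lhx2 in the cochlea rest on 10 and 7 reads in all, which limits their fold changes.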
